A study of Rattus norvegicus with 40 samples.

Results

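Circulating T cells of SS/MCW rats on low-salt chow were compared at 10 and 7 weeks of age. The comparison rests on 8 of the 40 RNA sequencing libraries of the series, 4 at each age, and covers every gene model in the authors' table for these groups. It was chosen by its groups and not by any measured value. The Dahl salt-sensitive (SS) rat is an inbred strain whose blood pressure rises on a high-salt diet, and SS/MCW and SS/CRL are the rat types named in the labels. The 7-week and the 10-week rats of this comparison were both SS/MCW and both ate low-salt chow (LS), so age is the labelled difference between them. The RNA of 3 rats was pooled for every library. How the T cells were isolated from blood is not given in the sources used here. Levels in the other circulating groups at 10 weeks are given for reference: SS/CRL rats on LS, and SS/MCW and SS/CRL rats after 3 weeks of high-salt chow (HS). Kidney T cells of SS/MCW rats on LS at the same ages are given where a gene was called in them.

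T cells leave the thymus as naive cells and recirculate between blood and lymphoid organs. Naive cells carry the chemokine receptor Ccr7 as a homing receptor, and all conventional T cells carry the CD3 complex, which signals for the antigen receptor. Quiescent T cells keep ribosome production, respiration and proteasome activity low, and raise them on activation. Platelets and red cells have no nucleus but carry RNA made by their precursors, and platelets can adhere to leukocytes in blood.

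Expression is in FPKM, a count of fragments scaled to transcript length and to the size of the library, with 1 value for each group. Because single libraries have no values here, their spread and depth are unknown. The standard error (SE) beside a log2 fold change is the one implied by the deposited test statistic. The verbs rose and fell, from 7 to 10 weeks, are kept for genes with a Cuffdiff q under 0.05 according to the authors' deposited table. The labels give separate pools but not whether they were collected or sequenced together, so age cannot be told apart from any difference between collections. Lower RNA from a cell type in a pool can mean fewer of those cells or less RNA per cell, and these cannot be told apart.

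Of 17103 gene models tested, 331 were called, which is 1.94%. Of these, 174 were higher at 10 weeks (1.02%) and 157 were lower (0.918%). A gene symbol was attached to 74 of the higher and 103 of the lower models. The fallen genes with a symbol were highly expressed, with a median of 72.7 FPKM, and the risen ones were not, with a median of 4.99 FPKM. Above a mean of 100 FPKM no model rose and 56 fell. Among the 7931 models with at least 5 FPKM at both ages the median log2 fold change was -0.05, with an SD across models of 0.30. At an unadjusted p under 0.05 there were 2225 models, or 13.0%, with 1233 higher (7.21%) and 992 lower (5.80%). The deposited p-values were smaller than those a normal distribution gives for the deposited statistic. With the normal p and the same adjustment, 8 models passed, and 4 of them were among the 331.

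**Figure D1:**
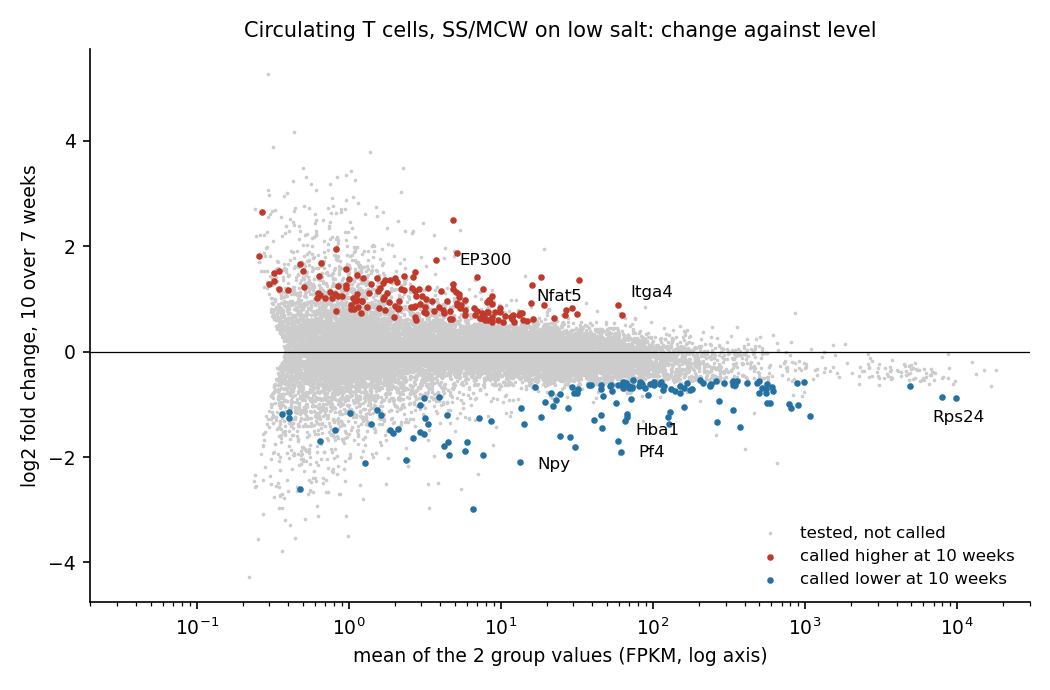
Log2 fold change of each tested gene model with a value above 0 at both ages, 10 over 7 weeks, against the mean of both group values in FPKM on a log axis. Red and blue points are gene models called higher and lower at 10 weeks; those called higher lie mostly at low levels and those called lower extend to the highest levels, with no red point above 100 FPKM.

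The cells carried T cell genes at both ages. Cd3e, a chain of the CD3 complex, was at 786 FPKM at 7 weeks and 691 FPKM at 10 weeks (log2 fold change -0.19, SE 0.36, q 0.748 in the authors' deposited table). Cd8a, the alpha chain of the CD8 coreceptor, was at 448 and 384 FPKM. Cd8b, its beta chain, was at 88.5 and 73.4 FPKM. Cd4, the coreceptor of helper cells, was at 111 and 117 FPKM, and the leukocyte phosphatase Ptprc was at 544 and 678 FPKM. None of these 5 genes was called. Of the 17 genes of the T cell identity list none was called in either direction, and 2 were lower at an unadjusted p under 0.05. These were Cd3d, at 912 and 638 FPKM with q 0.0878, and Cd2, at 333 and 257 FPKM with q 0.278. The 17 values summed to 5349 FPKM at 7 weeks and 4626 FPKM at 10 weeks, and their median log2 fold change was -0.14.

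Several homing and naive-cell genes had similar levels at both ages. Ccr7 was at 280 FPKM at 7 weeks and 267 FPKM at 10 weeks. S1pr1, the sphingosine phosphate receptor that lets T cells leave lymphoid organs, was at 400 and 441 FPKM. Art2b, the rat RT6 antigen of mature peripheral T cells, was at 167 and 158 FPKM. Thy1, which in the rat marks thymocytes and T cells that left the thymus recently, was at 1.47 and 1.07 FPKM (q 0.559). Of the 14 tested genes of the naive list 1 was called: Igfbp4, a binding protein of insulin-like growth factors, fell from 2.08 to 0.969 FPKM (log2 fold change -1.10, SE 0.54, q 0.00690). Its locus holds a second gene model. At an unadjusted p under 0.05, 1 of the 14 was higher and 2 were lower, beside 7.21% and 5.80% of all models. The log2 fold changes of this list ranged from -1.10 to 0.52, with a median of -0.04.

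Over the 10 lists of T cell genes, 2 of 130 tested members were called, or 1.54%, beside 1.94% of all models. The other call was Ikzf2, which encodes the transcription factor Helios of thymocytes and many regulatory T cells. It rose from 7.61 to 11.5 FPKM (log2 fold change 0.60, SE 0.33, q 0.0308). Foxp3, the defining factor of regulatory T cells, was at 12.9 and 13.1 FPKM and was not called. Foxp3 lies outside the rule for naming genes and was chosen after its value was seen. No member was called in the lists of proximal antigen receptor signaling, cytotoxic effectors, natural killer receptors, costimulatory receptors, innate-like T cells or T cell activation. The receptor kinase Lck was at 481 and 449 FPKM, the activation marker Cd69 at 117 and 124 FPKM, and the granule protease Gzmm at 85.1 and 73.0 FPKM. Ccl5, a chemokine of memory and effector cells, was at 65.5 and 54.9 FPKM, against 222 FPKM in SS/CRL on LS and 82.1 FPKM in SS/MCW on HS. Of 33 interferon-stimulated genes 32 were tested and none was called; their median log2 fold change was 0.10.

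Platelet genes were lower at 10 weeks. Of the 15 tested members of the platelet list 5 fell and none rose, beside 0.918% of all models called lower. All 5 had the smallest q in the authors' deposited table, 0.00690, a tied minimum that 124 models shared. The 16 matched members summed to 149 FPKM at 7 weeks and 58.9 FPKM at 10 weeks. Their median log2 fold change was -1.12 over the 11 members with at least 1 FPKM, of which 10 were lower.

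Pf4, platelet factor 4 of the alpha granules, fell from 96.9 to 25.9 FPKM (log2 fold change -1.90, SE 0.44), a 3.74-fold difference. The authors' gene model for Pf4 lies on chromosome 14, 18758054 to 18759000, in build rn5. Its level was 22.1 FPKM in SS/CRL on LS, 37.4 FPKM in SS/MCW on HS and 42.8 FPKM in SS/CRL on HS. All 4 groups at 10 weeks were thus below the 7-week value. Gp1bb, a subunit of the receptor for von Willebrand factor, fell from 7.27 to 1.87 FPKM (log2 fold change -1.96, SE 0.56). Clec1b, the podoplanin receptor CLEC-2, fell from 6.90 to 2.102 FPKM (log2 fold change -1.72, SE 0.54). Treml1, a receptor stored in the alpha granules, fell from 3.85 to 0.920 FPKM (log2 fold change -2.06, SE 0.64). Itga2b, the integrin alpha chain of the fibrinogen receptor, fell from 3.94 to 1.95 FPKM (log2 fold change -1.01, SE 0.43).

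Itgb3, the beta chain that pairs with Itga2b and that other leukocytes also make, was at 18.1 and 16.2 FPKM and was not called. Rgs18 was the member above 1 FPKM that was higher, at 2.90 and 3.48 FPKM. Gp9, the partner of Gp1bb, was at 1.14 and 0.380 FPKM with q 0.140. These 3 genes lie outside the rule for naming genes and were chosen after their values were seen.

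The promoters of the fallen platelet genes are shown because factors of the GATA family act in megakaryocytes, the precursors of platelets. These factors bind letters such as AGATAA and TGATAA. Other forms, such as the AGATAG in the Gp1bb sequence below, were not searched for and are not marked. Each sequence is the 150 bases before the gene's start in RefSeq assembly GRCr8, on the gene's own strand, with AGATAA and TGATAA in capitals where present on either strand. No entry for Pf4 was at hand.
Gp1bb: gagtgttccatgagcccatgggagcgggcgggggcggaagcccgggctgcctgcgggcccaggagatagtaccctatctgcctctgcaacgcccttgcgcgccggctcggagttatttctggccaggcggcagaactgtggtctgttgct
Clec1b: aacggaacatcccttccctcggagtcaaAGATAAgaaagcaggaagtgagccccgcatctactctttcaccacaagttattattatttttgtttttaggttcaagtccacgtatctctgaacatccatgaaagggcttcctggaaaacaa
Treml1: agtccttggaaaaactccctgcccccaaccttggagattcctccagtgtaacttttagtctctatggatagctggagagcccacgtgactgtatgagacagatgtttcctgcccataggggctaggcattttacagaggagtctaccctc
Itga2b: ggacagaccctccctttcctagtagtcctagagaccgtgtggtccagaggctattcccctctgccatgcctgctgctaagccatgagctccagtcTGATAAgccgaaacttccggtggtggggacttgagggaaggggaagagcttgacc
AGATAA began 122 bases before the start of Clec1b and TGATAA 55 bases before that of Itga2b. The windows lie on chromosome 11, 95882411 to 95882560 (plus strand, Gp1bb), chromosome 4, 164533959 to 164534108 (plus strand, Clec1b), chromosome 9, 20139934 to 20140083 (minus strand, Treml1), and chromosome 10, 87925834 to 87925983 (minus strand, Itga2b). In the 250 bases upstream, either motif stood in 6 of the 12 platelet list genes with a RefSeq promoter. It stood in 8.79% of the 7395 promoters of tested genes and in 16.6% of all 27457 promoters of that length. It was in 7 of 66 promoters of fallen genes (10.6%) and 0 of 55 of risen genes. Both motifs are rich in A and T, and these sets differ in base composition. Median GC was 52.4% in the platelet list, 60.4% in tested genes and 52% in all promoters. It was 55.2% in fallen and 64% in risen genes. Whether the motif shares differ beyond base composition was not tested. A match of letters is a description and not a bound site.

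Hemoglobin genes were lower too. Of the 7 tested members of the erythroid list 3 fell and none rose, beside 0.918% of all models called lower. Hba1, an alpha chain of adult hemoglobin, fell from 89.4 to 27.6 FPKM (log2 fold change -1.69, SE 0.38, q 0.00690). Hba2 fell from 47.9 to 13.6 FPKM (log2 fold change -1.82, SE 0.43, q 0.00690). Hbb, the beta chain, fell from 36.6 to 12.0 FPKM (log2 fold change -1.61, SE 0.45, q 0.00690). The alpha chain copies are nearly identical, so the split of reads between Hba1 and Hba2 is uncertain. The other tested members with at least 1 FPKM, Tfrc and Bpgm, were at 15.1 and 12.2 FPKM at 7 weeks and at 18.1 and 11.5 FPKM at 10 weeks. Both also serve nucleated cells, and both were chosen after their values were seen. Hba1 was at 37.5 FPKM in SS/CRL on LS, 33.7 FPKM in SS/MCW on HS and 72.4 FPKM in SS/CRL on HS, so the last lay near the 7-week value.

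Several of the largest falls were in genes outside these lists, and the cells that these genes came from were not examined. Npy, neuropeptide Y, fell from 21.8 to 5.07 FPKM (SE of the log2 fold change 0.50, q 0.00690), a 4.29-fold difference. The secreted phospholipase Pla2g2a fell from 12.1 to 3.11 FPKM, the calmodulin-binding protein neurogranin, Nrgn, from 9.20 to 2.49 FPKM, and the myosin light chain Myl9 from 9.22 to 2.80 FPKM, each with q 0.00690. In the other circulating groups at 10 weeks Npy lay between 5.30 and 9.84 FPKM, again below the 7-week level. Whether the levels of these genes moved with the platelet or red cell genes was not tested.

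Markers of other cells were examined in the same way. Beside 1.94% of all models, 1 of the 14 tested B cell genes was called. This was IGJ, the joining chain of secreted antibodies made by plasma cells, which rose from 5.66 to 11.1 FPKM (log2 fold change 0.97, SE 0.54, q 0.0240). The other B cell genes did not follow it as a group. Of 13 with at least 1 FPKM, 5 including IGJ were higher and 8 were lower. At an unadjusted p under 0.05, 4 were lower, beside 5.80% of all models, and none of those 4 was called. The summed B cell list was at 67.4 and 60.6 FPKM. IGJ was at 14.8 FPKM in SS/MCW on HS, 19.5 FPKM in SS/CRL on LS and 22.5 FPKM in SS/CRL on HS. None of the 9 tested macrophage genes, 4 tested neutrophil genes or 2 tested dendritic and mast cell genes was called. The macrophage list summed to 161 and 140 FPKM, most of it cathepsin S, Ctss, at 103 and 82.6 FPKM, while C1qa and C1qc were at 0 at both ages. The neutrophil list summed to 30.0 and 28.0 FPKM.

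Without the platelet and erythroid list members, 323 models remained called, 174 higher and 149 lower. Genes that platelets or red cells may carry but that lie outside the lists were not removed.

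**Figure D2:**
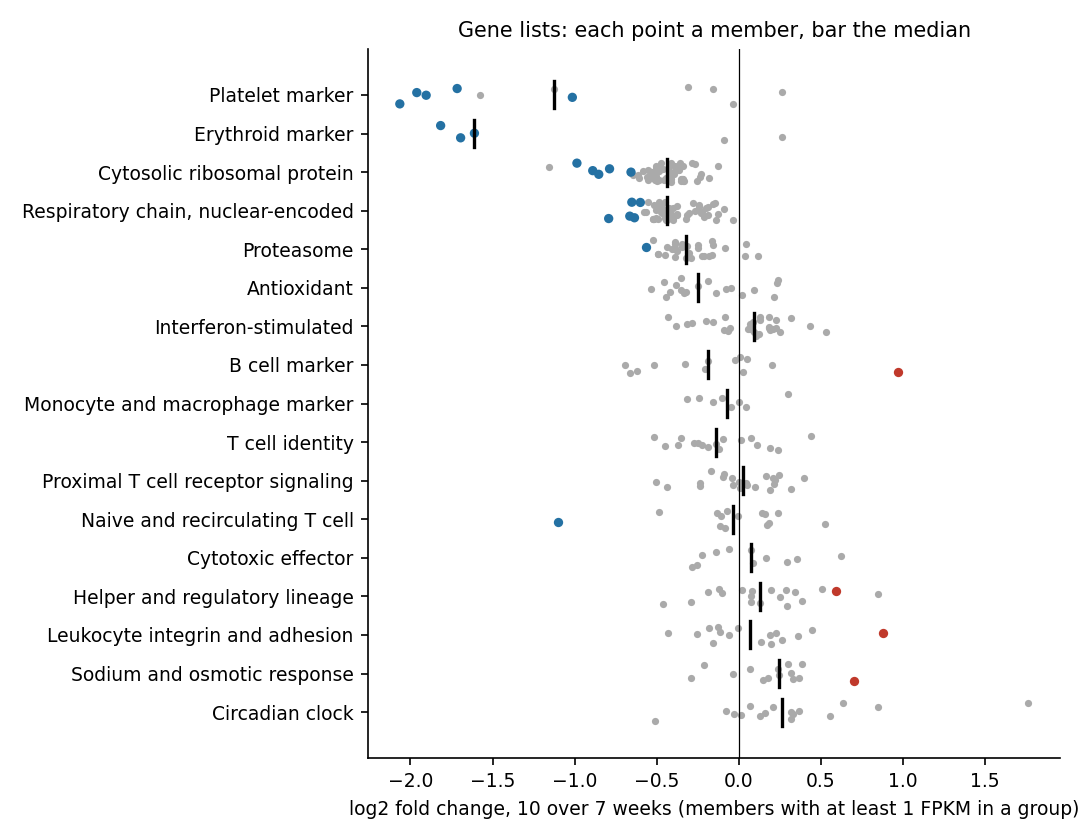
Log2 fold change, 10 over 7 weeks, of the members of 17 gene lists with at least 1 FPKM at either age. Each point is a gene, red or blue points are genes called higher or lower, grey points were not called, and the black bar is the list's median. The platelet and erythroid medians lie at -1.12 and -1.61, and every ribosomal and respiratory chain member lies left of 0.

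Genes of protein synthesis and respiration were lower as groups at 10 weeks, with smaller differences. Of 64 cytosolic ribosomal protein genes tested all 64 were lower, where 51.4% of all tested models with at least 1 FPKM were lower. Beside 0.918% and 5.80% of all models, 5 of the 64 fell and 34 were lower at an unadjusted p under 0.05. Their median log2 fold change was -0.43, against -0.05 over all models with at least 5 FPKM at both ages. It was near the median of -0.38 of the 166 models with a mean above 500 FPKM. It was also near the median of -0.38 of 394 models with a mean above 50 FPKM that were among the shortest 20% by genomic span. Both sets include members of the ribosomal list, so their medians are not independent of it. The list held 37.1% of the summed FPKM of all models at 7 weeks and 33.2% at 10 weeks. FPKM is scaled to transcript length as well as to library size, so this sum is not fixed. It was 947063 FPKM at 7 weeks and 765701 FPKM at 10 weeks. A change in genes that hold so much of a library can also move the values of others, and how far it did was not tested.

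Rps24, a protein of the small ribosomal subunit, fell from 12792 to 6906 FPKM (log2 fold change -0.89, SE 0.36, q 0.00690). Rps28 fell from 10218 to 5658 FPKM (log2 fold change -0.85, SE 0.41, q 0.00690). Rps9 fell from 1037 to 523 FPKM, Rps4x from 700 to 406 FPKM and Rps21 from 5979 to 3794 FPKM, the last with q 0.0491. Rps24 was at 8414 FPKM in SS/CRL on LS, 7516 FPKM in SS/MCW on HS and 6305 FPKM in SS/CRL on HS. The models labelled Rps24 and Rps4x lie on chromosome 10, 78838490 to 78838991, and on chromosome 4, 35587235 to 35588132, in rn5. Ribosomal protein genes have many near-identical copies in the genome. A model may thus be such a copy, reads may be split among copies, and single values are uncertain. The same holds for models labelled RPS29, Rps10l1, RGD1561333 and RGD1562402, which were among the 15 largest falls. A run of at least 7 pyrimidines across the annotated start was present in 30 of 51 ribosomal list genes with a RefSeq promoter. It was present in 5.30% of the promoters of tested genes. The run may include bases before the start, whereas messages whose translation follows nutrient signals carry it from their first base.

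Nuclear genes of the respiratory chain had the same median, -0.43. All 55 tested were lower, 5 fell and 28 had an unadjusted p under 0.05. Of all tested models 0.918% fell and 5.80% were lower at that p, and of those with at least 1 FPKM 51.4% were lower. Atp5i, a subunit of ATP synthase, fell from 630 to 364 FPKM (log2 fold change -0.79, SE 0.36, q 0.00690). Uqcrh, a hinge protein of complex III, fell from 741 to 468 FPKM (log2 fold change -0.66, SE 0.34, q 0.00690). Ndufb3 of complex I fell from 85.5 to 54.5 FPKM, Cox7c of complex IV from 406 to 262 FPKM and Atp5e of ATP synthase from 1066 to 704 FPKM. In SS/CRL on LS the level of Atp5i was 388 FPKM. In both HS groups it was higher than in either LS group at 10 weeks, at 456 FPKM in SS/MCW and 419 FPKM in SS/CRL, and below the 7-week level.

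Proteasome genes showed the pattern with fewer calls. Of 31 tested, 28 were lower, where 51.4% of all tested models with at least 1 FPKM were lower. Psma7, an alpha subunit of the core particle, fell from 398 to 269 FPKM (q 0.0391). Psmb10, a subunit of the immunoproteasome, fell from 200 to 132 FPKM (q 0.0209). Stmn1, a tubulin-binding protein of dividing cells, fell from 122 to 81.8 FPKM (q 0.0351). It was the one call among 29 tested cell cycle genes, beside 1.94% of all models called. It was also the one with an unadjusted p under 0.05, beside 13.0% of all models. Glycolysis, fatty acid oxidation and chaperone genes had medians of -0.17, -0.13 and -0.16 with no call. Antioxidant genes had a median of -0.25 and no call. At an unadjusted p under 0.05, 6 of 19 were lower, beside 5.80% of all models.

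The genes that rose were mostly expressed below 20 FPKM. Those described first act on chromatin, transcription or RNA. The histone and chromatin list (23 tested) and the splicing and RNA binding list (30 tested) held no call, beside 1.94% of all models. Their median log2 fold changes were 0.03 and 0.02. At an unadjusted p under 0.05, 5 genes of the chromatin list were higher and 1 lower, and 1 and 1 of the splicing list. EP300, a histone acetyltransferase and coactivator, rose from 4.65 to 10.6 FPKM (log2 fold change 1.19, SE 0.56, q 0.00690), a 2.28-fold difference. The gene model carries its symbol in capitals and lies on chromosome 7, 122792537 to 122835889, in rn5. Lcor, a corepressor of nuclear receptors, rose from 5.66 to 11.7 FPKM (log2 fold change 1.05, SE 0.38). Rc3h1, which encodes roquin, a repressor of costimulatory and cytokine messages in T cells, rose from 10.9 to 20.6 FPKM (log2 fold change 0.92, SE 0.37). Ago2, the argonaute of microRNA silencing, rose from 3.56 to 6.73 FPKM (log2 fold change 0.92, SE 0.40). The last 3 had q 0.00690.

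Single genes of adhesion and signaling were also called, while most members of those lists were not. Itga4, the alpha chain of the integrin VLA-4, which T cells use to bind inflamed endothelium, rose from 41.7 to 76.7 FPKM (log2 fold change 0.88, SE 0.46, q 0.0209). It was the one call among 17 tested integrin and adhesion genes, beside 1.94% of all models called. Traf6, a ubiquitin ligase of NF-kB signaling, rose from 7.10 to 12.7 FPKM (log2 fold change 0.84, SE 0.38, q 0.00690). Nfat5, the transcription factor of the response to osmotic stress, rose from 10.0 to 16.3 FPKM (log2 fold change 0.70, SE 0.33, q 0.00690). Of the 16 tested genes of the sodium and osmotic list no other was called, beside 1.02% of all models called higher. At an unadjusted p under 0.05, 4 of the 16 were higher and 0 lower, beside 7.21% and 5.80% of all models. Among the 14 with at least 1 FPKM, 11 were higher and 3 lower, with a median log2 fold change of 0.24. Pank3, a kinase of coenzyme A synthesis, rose from 2.96 to 6.71 FPKM, and Klhl11, an adaptor of a ubiquitin ligase, from 2.81 to 6.81 FPKM, both with q 0.00690. Ptar1, Zfp664, Tmed8, Zyg11b and Abhd2 were the other large rises, with log2 fold changes between 0.83 and 1.14.

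A gene model labelled NR3C1, the symbol of the glucocorticoid receptor, rose from 5.63 to 11.1 FPKM (log2 fold change 0.98, SE 0.47, q 0.0151). It lies on chromosome 18, 32327620 to 32381303, in rn5. A second model, labelled Nr3c1, lies on the same chromosome at 31408681 to 31452023, was at 16.5 and 20.6 FPKM, and was not called (q 0.371). Which of them holds the receptor's transcripts cannot be read from the table. None of the 12 tested glucocorticoid target genes was called. Of the 16 tested clock genes 13 were higher, where 48.6% of all tested models with at least 1 FPKM were higher. No clock gene was called. At an unadjusted p under 0.05, 4 of the 16 clock genes were higher, beside 7.21% of all models. The 4 were Per2, Per3, NR1D2 and Rora. Dbp, an output gene of the clock, was at 27.6 and 19.4 FPKM (q 0.500). The clock genes other than Dbp were named after their values were seen, and the hour of collection is not given in the sources used here.

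Levels across the other circulating groups are given for EP300, Rc3h1, Itga4 and Nfat5, which were picked for this after their values were seen. EP300 was at 9.62 FPKM in SS/CRL on LS, near the 10-week value of SS/MCW on LS. It was at 5.10 FPKM in SS/MCW on HS and 5.01 FPKM in SS/CRL on HS, near the 7-week value. Rc3h1 was at 18.5 FPKM in SS/CRL on LS, 12.2 FPKM in SS/MCW on HS and 11.2 FPKM in SS/CRL on HS. Itga4 was at 71.5, 48.7 and 50.7 FPKM and Nfat5 at 15.8, 11.6 and 12.0 FPKM in the same 3 groups. For each of these 4 genes, both LS groups at 10 weeks were thus above both HS groups at 10 weeks and the 7-week LS group. Not every risen gene had this order, since IGJ was higher in both HS groups than in SS/MCW on LS at 10 weeks. The 10-week SS/MCW group on LS enters many of these comparisons, though not that between the SS/CRL groups. Differences between the effects were not tested.

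**Figure D3:**
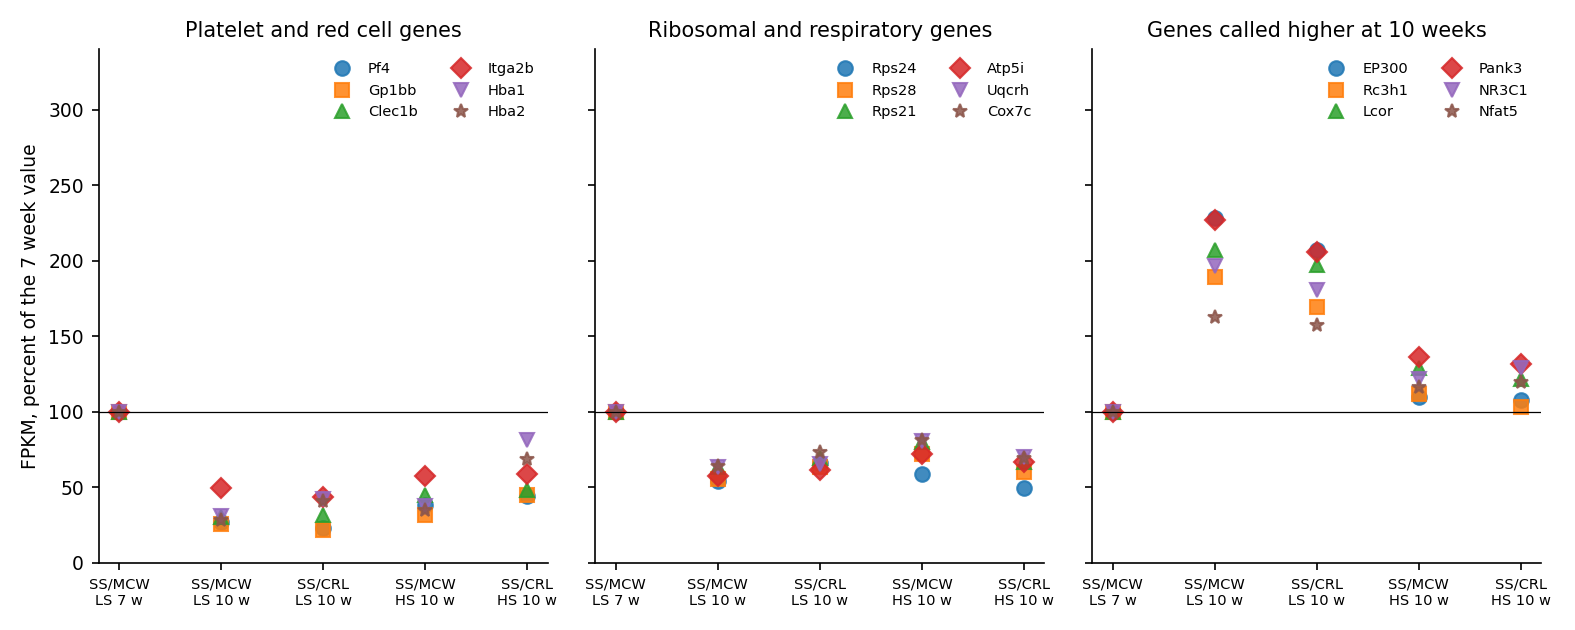
Level of 18 genes in the 5 groups of circulating T cells, as a percentage of the 7-week FPKM of the same gene, with 1 value for each group and no error bars. The platelet genes shown are below the 7-week value in every 10-week group, and the hemoglobin genes lie nearer to it in SS/CRL on HS, where Hba1 was at 72.4 FPKM. The 6 genes shown that were called higher in SS/MCW on LS at 10 weeks are also high in SS/CRL on LS and lie nearer to 100% in both HS groups.

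The direction of the change went with the length of the gene. Over 4985 tested models with a symbol, a locus of their own and a mean of at least 5 FPKM, log2 fold change and genomic span had a Spearman correlation of 0.51. This is a description across genes, which share the same libraries and are not independent replicates. The median log2 fold change was -0.28 in the shortest 20% of models, with a median span of 4415 bases, and 13.5% of them were higher at 10 weeks. In the successive bins of equal size the medians were -0.14, -0.04, 0.06 and 0.14, and in the longest 20% of models 72.3% were higher. Of the models called lower 64 were in the shortest bin and 0 in the longest. Of those called higher 1 was in the shortest bin and 17 in the longest. The median span was 58926 bases for 33 models called higher and 2521 bases for 77 called lower.

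Short genes were also expressed more, so the relation was computed within ranges of level. The Spearman correlation was 0.43 between 5 and 20 FPKM, 0.48 between 20 and 50 FPKM and 0.59 above 50 FPKM. In other comparisons of circulating cells, which share groups with this one, it was -0.51 for HS over LS in SS/MCW and -0.44 for HS over LS in SS/CRL. It was 0.11 for SS/CRL over SS/MCW on LS and 0.27 for the same contrast on HS. In kidney T cells of the same 2 ages the correlation was 0.01, with medians of 0.07 and 0.08 in the shortest and longest bins. In the same set the median span was 2948 bases for 49 ribosomal protein genes and 6550 bases for 38 respiratory chain genes. The models of EP300, Rc3h1, Nfat5 and Itga4 spanned 43353, 70918, 87882 and 95648 bases. Whether length, RNA integrity or library preparation plays a part in the changes of these genes was not tested.

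**Figure D4:**
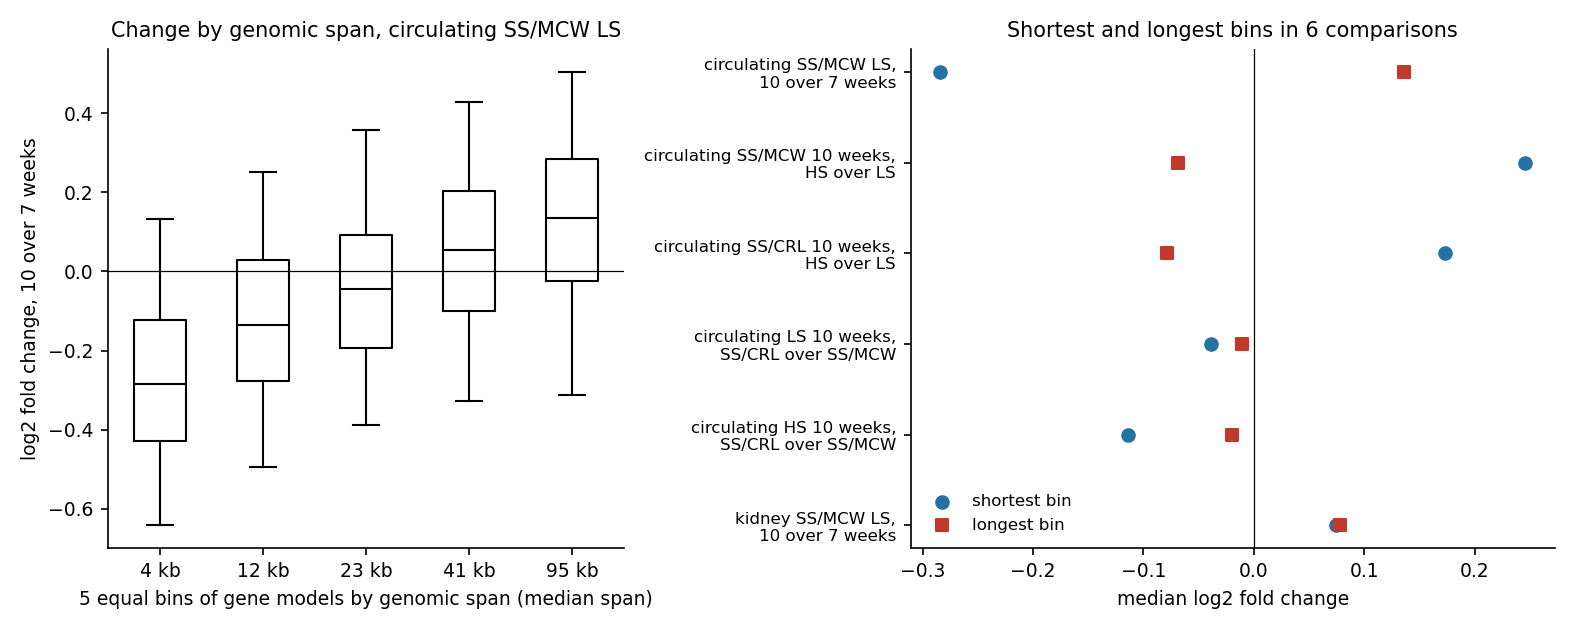
Left, log2 fold change at 10 over 7 weeks for 5 bins of equal size of 4985 gene models by genomic span, with boxes from the 25th to the 75th percentile, the median as a line and whiskers at the 5th and 95th. Right, the median log2 fold change of the shortest (blue circles) and longest (red squares) bin in 6 comparisons; the order of both bins in circulating SS/MCW on LS, -0.28 and 0.14, is the opposite of that in both HS over LS comparisons, and the kidney medians lie together.

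Gene families read from symbols, a grouping chosen after the values were seen, are set beside the 9387 tested models with a symbol and at least 1 FPKM at either age. Of those models 46.5% were higher and 53.5% lower, 0.767% rose and 1.04% fell, and the median was -0.03. Mitochondrial ribosomal proteins were lower in 70 of 73 models, with 4 fallen and a median of -0.38. Complex I genes were lower in 41 of 43, with 4 fallen. Zinc finger genes of the Zfp series were higher in 136 of 200, with 5 risen, none fallen and a median of 0.10. Ubiquitin-specific proteases were higher in 34 of 40 and lysine demethylases in 13 of 16, with 1 risen in each family. These were Usp31, from 1.54 to 2.70 FPKM, and Kdm7a, from 9.15 to 14.8 FPKM.

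In kidney T cells of SS/MCW rats on LS, 202 of 18869 models were called between 10 and 7 weeks, or 1.07%. Of these 7 were also called in circulating cells, which is 2.11% of the circulating calls and 3.47% of the kidney calls. One of the 7 had the same direction in both tissues and carries no symbol. The 4 with a symbol all fell in circulating cells and rose in kidney cells. Hbb, at 36.6 and 12.0 FPKM in circulating cells, reached 646 FPKM in kidney cells at 10 weeks, and Hba2 rose there from 229 to 1333 FPKM. Crip1, a small LIM protein, fell from 774 to 463 FPKM in circulating cells and rose from 171 to 514 FPKM in kidney cells. Psmb10 rose in kidney from 42.8 to 106 FPKM. The difference between the tissues was tested with a z from both log2 fold changes and their SEs, with Benjamini-Hochberg adjustment over 12218 models. For Hbb it was -4.72 log2 units (SE 1.13, adjusted p 0.114) and for Hba2 -4.36 (SE 1.09, adjusted p 0.194), so neither passed. No model with a symbol passed, and 67 models (0.548%) had an unadjusted p under 0.05. That share is far below the threshold itself, so with these SEs the test is conservative and a miss does not show that the tissues changed alike.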

How the data were processed

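Circulating T cells of SS/MCW rats on low-salt chow were sequenced in 4 libraries at 7 weeks and 4 at 10 weeks of age, each from a pool of 3 rats, from TRIzol RNA with a TruSeq kit, as the labels state. The submitters' processing notes name cutadapt, Trim Galore 0.2.5, TopHat, TopHat2 2.1.1, Cufflinks 2.2.1, Cuffdiff and build rn5. The authors' deposited tables give 1 FPKM per group for 31677 gene models, with a test statistic (the deposited score), a p-value and a q-value per the file headers. Depth and its precision are unknown. Whether pools were independent in collection is not given, so p-values measure only the spread between these libraries.

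Log2 fold changes are those of the 2 deposited FPKM values, because a spreadsheet had altered part of the deposited fold column, and the SE is the size of the log2 fold change over that of the statistic. A call is a q under 0.05 with status OK. Levels of other groups came from tables that share a group, shifted by the median log2 ratio of that group over gene models. Column labels were checked on the shared groups, whose log2 ratios had SDs between 0.0003 and 0.0043.

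The comparison and the 42 lists (918 members, 867 distinct genes, 872 members matched, 35 by a synonym or another case) were chosen with earlier results of these data known. List medians use members with at least 1 FPKM at either age. Named were the 15 largest rises and falls of called genes that had a symbol, a value above 0 at both ages and at least 5 FPKM at one, up to 5 called members of each list, 4 or 2 of the most expressed members of lists without a call, and Cd3e, Cd4, Cd8a, Cd8b, Ptprc, Thy1, Art2b and Ccr7 always. One further gene of this rule is not reported here. Il7r had no matching gene model. Not all genes that meet the rule are described. Gene spans are from the rn5 gene models, promoters from RefSeq GRCr8. The calculation of normal p-values was tested on simulated data. The test between tissues was added after the values were seen. The tools were scipy 1.17.1, numpy 2.4.6 and pandas 2.3.3 under Python 3.11.15, with plots from matplotlib 3.10.9.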

Additional observations from a re-analysis of the deposited data

Results flagged for a closer look

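One gene model without a symbol, on the mitochondrial chromosome M at 15347 to 15415 in rn5, differed between the tissues in its change from 7 to 10 weeks. It went from 1064 to 247 FPKM in circulating cells and from 2950 to 16250 FPKM in kidney cells, a difference of -4.57 on the log2 scale (circulating minus kidney), with an adjusted p listed at 0. It was called in neither tissue, with deposited p-values of 0.142 and 0.238, and its SE of 0.0084 comes from very large deposited statistics.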

How the results depend on the processing

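Against 331 called gene models (174 higher, 157 lower), a q under 0.01 left 124 (63 and 61), a minimum of 5 FPKM 211 (80 higher), and a log2 fold change of at least 1 in size 154 (83 and 71). The normal p of the deposited statistic called 8 (2 and 6), and with recentring on the median 5 (2 and 3), of which 1 was among the 331. Models with a symbol and a locus of their own, an alternative chosen after seeing the data, numbered 156 (63 and 93), and the split thus turned towards lower. A minimum of 1 FPKM gave 310 and a value above 0 at both ages 306. Of 408 values of 136 named genes under alternatives 0 changed direction. Of 168 list medians 11 changed sign, none of them for the platelet, erythroid, ribosomal or respiratory chain lists. No paired analysis was possible because each group has 1 value and single libraries have none, and leaving out replicates was not possible for the same reason. Depth is unknown and sets no limit that could be stated.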
